A study of Mus musculus with 16 samples.

Results

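The genes described here are SRF and 9 genes of the immediate early response. Besides SRF (NM_003131) they are FOS (NM_005252), FOSB (NM_006732), JUN (NM_002228) and JUNB (NM_002229), which encode subunits of the AP-1 transcription factor, and EGR1 (NM_001964), IER2 (NM_004907), DUSP1 (NM_004417), CYR61 (NM_001554) and CTGF (NM_001901). Each was read from the probe that carries its human RefSeq identifier, 10 of the 29094 identifiers on the array. The set was chosen because the SRF transcript ranked among the lower ones for combined treatment against control in these same data. The values of that comparison are therefore a description, with no test.

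The samples were tumours of H295R cells, a human line from an adrenocortical carcinoma that makes steroid hormones, carried by SCID mice, hosts without working T or B cells. The 4 groups received mitotane together with 9-cis retinoic acid (combined), mitotane, 9-cis retinoic acid (9-cisRA) or corn oil (control) by mouth for 28 days. Mitotane, a drug toxic to the adrenal cortex, is given to patients with this cancer, and 9-cisRA is a vitamin A derivative and a ligand of RAR and RXR receptors. Cy3-labelled total RNA was read on 1-colour human Agilent arrays, with 3 arrays of the combined group and 4 of each other group, and combined replicate 3 was read only in the authors' value table. The labels do not give the age of the mice or the doses, list the mouse as the organism, and leave unsaid whether each array had its own mouse. P-values therefore reflect the spread among these samples, which may be technical in part. In RNA of a whole tumour, fewer cells of a type and less RNA per cell cannot be told apart. The markers fixed for adrenocortical and host cells could not be read by name in these files, so the labelled tissue was not checked.

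SRF is a transcription factor that binds CArG box elements together with cofactors of the Elk or MRTF families. Growth factors, serum, hormones and stress switch on immediate early genes within minutes and without new protein synthesis, and SRF sits on the promoters of many of them, its own included. In the adrenal cortex several of them are known to respond to the peptide hormones that drive steroid synthesis.

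Control replicate 4 stood apart before any comparison. Its 75th percentile of signal was an intensity of 224.2, against 551.5 to 1061 on the other arrays, and its median Pearson r with the other arrays was 0.874, against 0.977 to 0.99. Combined replicate 4 had 57.9% of its probes well above background and control replicate 4 had 61.6%, against 69.4% to 75.9% on the rest. Results are given with and without control replicate 4. All 9-cisRA arrays lay at position 4 of their slide, so an effect of position and one of 9-cisRA cannot be told apart. Control replicates 1 to 3 lay at position 3 and control replicate 4 at position 2. No combined array lay at position 3, and of the mitotane arrays replicate 4 alone did. Without control replicate 4, position and combined treatment against control therefore cannot be told apart either. Each slide held 1 array of each group, and the replicate number is the slide. Levels below are log2 of the signal minus the array's 75th percentile (log2 signal), and changes are differences of their group means.

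Of the 10 genes, 9 were tested, being well above background on all arrays of 1 group or more, and 8 were so on all 15 arrays. SRF missed that mark on combined replicate 4 alone. CTGF, which encodes a matricellular growth factor ligand, was not tested: its intensity lay between 2.24 and 15.5 over all arrays, and it was well above background on mitotane replicate 2 and 9-cisRA replicate 3 alone.

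SRF was lowest in the combined group. Its log2 signal was -4.48, -4.52 and -4.89 on the combined arrays. It was -3.92, -3.86, -3.71 and -4.03 on the mitotane arrays and -4.16, -4.15, -4.21 and -3.93 on the 9-cisRA arrays. The control arrays read -3.75, -3.71, -3.62 and -1.96. The 3 combined arrays lay below every other array, and control replicate 4 lay far above the remaining 14. On the unscaled scale that array was not high: SRF had an intensity of 57.8 there, against 78.0, 66.5 and 56.3 on control replicates 1 to 3. The combined arrays had intensities of 32.9, 41.0 and 22.2, all below the lowest control array.

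In order of its mean, SRF averaged -4.63 ± 0.22 in the combined group (SD, n = 3), -4.11 ± 0.13 under 9-cisRA, -3.88 ± 0.13 under mitotane and -3.26 ± 0.87 in control (n = 4 each). Over control replicates 1 to 3 the mean was -3.70 ± 0.06 (n = 3). The 9-cisRA and mitotane arrays overlapped, as did the mitotane and control arrays. The combined and 9-cisRA arrays did not overlap on the 15 arrays with scanner output. In the authors' deposited value table, however, combined replicate 3 had a log2 value of -0.13, against -0.52, -0.56 and -0.92 on the other combined arrays and -0.15, -0.14, -0.22 and 0.06 on the 9-cisRA arrays. With that array the combined and 9-cisRA groups overlapped.

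**Figure D1:**
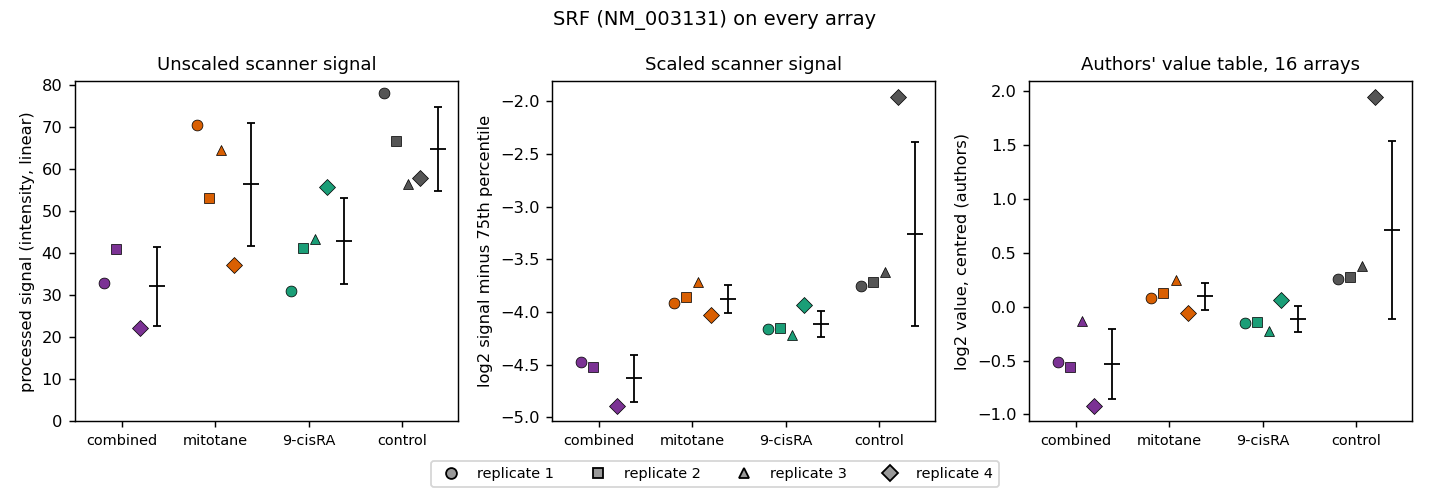
SRF on every array in 3 scales, by group from combined to control: the unscaled intensity (left), the log2 signal minus the array's 75th percentile (middle) and the authors' centred log2 value (right, with combined replicate 3). Points are arrays, with a symbol for each replicate number, and bars show mean ± SD; control replicate 4 is high on both scaled panels at -1.96 and 1.95, but sits at an intensity of 57.8 on the left.

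For combined against control the log2 change of SRF was -1.37 ± 0.34 (SE), a 2.59-fold lower signal. It was -0.94 ± 0.13 without control replicate 4 and -0.48 with normexp background correction and quantile normalisation. SRF ranked 2 of 20216 transcripts from the low end by the moderated t and 155 by the log2 change. Next to it in the first order stood ENST00000334082 at -1.21, rank 1, and ENST00000430664 at -0.97, rank 3. These values are those the genes were chosen by.

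SRF was also lower under 9-cisRA than in control. That comparison shares its control arrays with the one SRF was chosen by, so its values are a description too. The log2 change was -0.85 ± 0.31, a 1.81-fold difference, with an unadjusted p = 0.0161 that did not pass over all transcripts (adjusted p = 0.744, limma). It was -0.42 ± 0.12 without control replicate 4. Within slides 1 to 4, SRF was lower under 9-cisRA by a log2 difference of -0.41, -0.44, -0.59 and -1.98, the last against control replicate 4. Under mitotane the SRF change against control was -0.62 ± 0.31, and -0.18 ± 0.12 without control replicate 4 (adjusted p = 0.713 and adjusted p = 0.638, limma).

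Set against the single agents, combined treatment gave SRF changes of -0.75 ± 0.34 against mitotane and -0.52 ± 0.34 against 9-cisRA, and the SE of both was 0.12 without control replicate 4. These comparisons share their combined arrays with the one SRF was chosen by, so its values here are a description too. On the slides that held both, SRF was lower in the combined array than in the mitotane array by -0.56, -0.67 and -0.86. It was lower than in the 9-cisRA array by -0.32, -0.37 and -0.96. With array weights, which gave control replicate 4 a weight of 0.04, they were -0.63 and -0.47. SRF was then the 1 of 9 genes past the adjusted threshold in limma against mitotane, as were 0.509% of all transcripts, and against 9-cisRA, as were 9.91%. Nothing is read from those calls for SRF.

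FOSB had the largest difference of the 9 tested genes for 9-cisRA against control. FosB is a partner of Jun proteins in AP-1. Its log2 signal was -2.71, -3.76, -2.75 and -2.58 under 9-cisRA, against 0.94, -0.83, 1.75 and -2.33 in control. On the unscaled scale the 9-cisRA arrays had intensities of 84.1, 54.3, 120 and 142, against 2006, 490, 2331 and 44.6 in control. All 9-cisRA arrays lay below all control arrays on the scaled values, but control replicate 4 lay close to 9-cisRA replicate 4 and was the dimmest array on the unscaled values.

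The FOSB log2 change for 9-cisRA against control was -2.83 ± 0.78 (95% interval -4.51 to -1.15), a 7.12-fold lower signal, with an unadjusted p = 0.00283 and adjusted p = 0.744 in limma. Of 20216 tested transcripts, 20 had a change as low or lower. The change was -3.57 ± 0.68, or 11.9-fold, without control replicate 4 (adjusted p = 0.98, limma), and it was then the lowest of all tested transcripts. The within-slide differences were -3.65, -2.93 and -4.50 on slides 1 to 3 and -0.25 on slide 4.

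In the combined group FOSB read -2.49, -2.27 and -2.98, close to the 9-cisRA arrays and overlapping control through control replicate 4. Its log2 change for combined against control was -2.46 ± 0.85, and -3.20 ± 0.73 without control replicate 4. Combined against 9-cisRA was 0.37 ± 0.85 for FOSB, with the groups overlapping (adjusted p = 0.993, limma). The mitotane arrays spread widely, at -1.27, -1.92, 0.79 and -2.39, and all lay above the 9-cisRA arrays. Against control, mitotane gave a FOSB change of -1.08 ± 0.78, or -1.81 ± 0.68 without control replicate 4 (unadjusted p = 0.0196, adjusted p = 0.616, limma).

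FOS, a core subunit of AP-1, was lower on every 9-cisRA array than on every control array on the scaled values. It read -2.59, -2.70, -1.94 and -2.06 under 9-cisRA, against -0.17, -1.82, -0.03 and -1.53 in control. The groups did not overlap, although 9-cisRA replicate 3 and control replicate 2 were close. On the unscaled scale control replicate 4 had an intensity of 77.8, below every 9-cisRA array (91.5 to 210). The change was -1.44 ± 0.56, a 2.71-fold difference (unadjusted p = 0.0219, adjusted p = 0.744, limma), and -1.65 ± 0.59 without control replicate 4. Within slides FOS differed by -2.43, -0.89, -1.91 and -0.53. The combined arrays, at -1.51, -2.03 and -1.09, overlapped both the 9-cisRA and the control arrays. Mitotane arrays, at -1.35, -2.24, 0.43 and -2.40, spanned nearly the whole range of the gene.

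JUN and JUNB encode the Jun partners of AP-1, and neither separated 9-cisRA from control. JUN read -0.81, -0.68, -0.81 and -0.54 under 9-cisRA, against -0.25, -0.50, 0.34 and -1.42 in control. Control replicate 4 was the lowest of the 15 arrays for JUN. The change was -0.25 ± 0.32, and -0.58 ± 0.25 without that array, when the groups did not overlap. JUNB read -3.21, -3.26 and -3.11 on the combined arrays, against -3.00, -3.10, -2.46 and -2.73 in control, a change of -0.37 ± 0.26 with groups that narrowly did not overlap. The JUNB change under 9-cisRA was -0.29 ± 0.24.

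EGR1, a zinc finger factor induced through SRF sites, also separated 9-cisRA from control on the scaled values. It read 1.46, 0.66, 1.47 and 2.01 under 9-cisRA, against 2.76, 2.37, 3.43 and 3.01 in control. Every 9-cisRA array lay below every control array on this scale, control replicate 4 included. On the unscaled scale control replicate 4 had an intensity of 1806, below 9-cisRA replicates 3 and 4 at 2237 and 3425. The EGR1 change was -1.49 ± 0.48 (95% interval -2.51 to -0.47), a 2.81-fold lower signal (unadjusted p = 0.0072, adjusted p = 0.744, limma). It was -1.45 ± 0.52 without control replicate 4, so that array moved it little. Within slides it was -1.30, -1.72, -1.95 and -1.0. The combined arrays read 1.94, 1.98 and 2.57, between the 9-cisRA and control means, and the mitotane arrays 2.67, 1.99, 4.17 and 1.39. In the authors' value table, however, combined replicate 3 had a log2 value of -0.64, below the 9-cisRA mean of -0.58. The mean of the combined arrays there was -0.05, against 0.88 in control.

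IER2 and DUSP1 differed little in mean between the groups. IER2 is a nuclear protein of the early response, and DUSP1 is a phosphatase that switches off MAP kinases. IER2 averaged 3.97 ± 0.34 in the combined group (SD, n = 3), 4.16 ± 0.48 under mitotane, 3.62 ± 0.21 under 9-cisRA and 3.81 ± 0.46 in control (n = 4 each). DUSP1, the mean of 10 copies of its probe, averaged -0.56 ± 0.34, -0.56 ± 0.70, -0.74 ± 0.33 and -0.58 ± 0.49 in the same order. Their changes for 9-cisRA against control were -0.20 ± 0.26 and -0.16 ± 0.33. For both genes all 4 groups overlapped, except that every mitotane array lay above every 9-cisRA array for IER2.

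CYR61, a secreted matricellular protein, read 1.68, 0.99 and 1.65 on the combined arrays and 1.32, 1.78, 1.51 and 1.78 under 9-cisRA, against 3.34, 1.90, 2.19 and 1.04 in control. Control replicate 4 was the lowest control array, and all 9-cisRA arrays lay below the other 3. The change for 9-cisRA against control was -0.52 ± 0.45, and -0.88 ± 0.42 without control replicate 4. For combined against control it was -0.68 ± 0.49, and -1.04 ± 0.45 without that array.

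**Figure D2:**
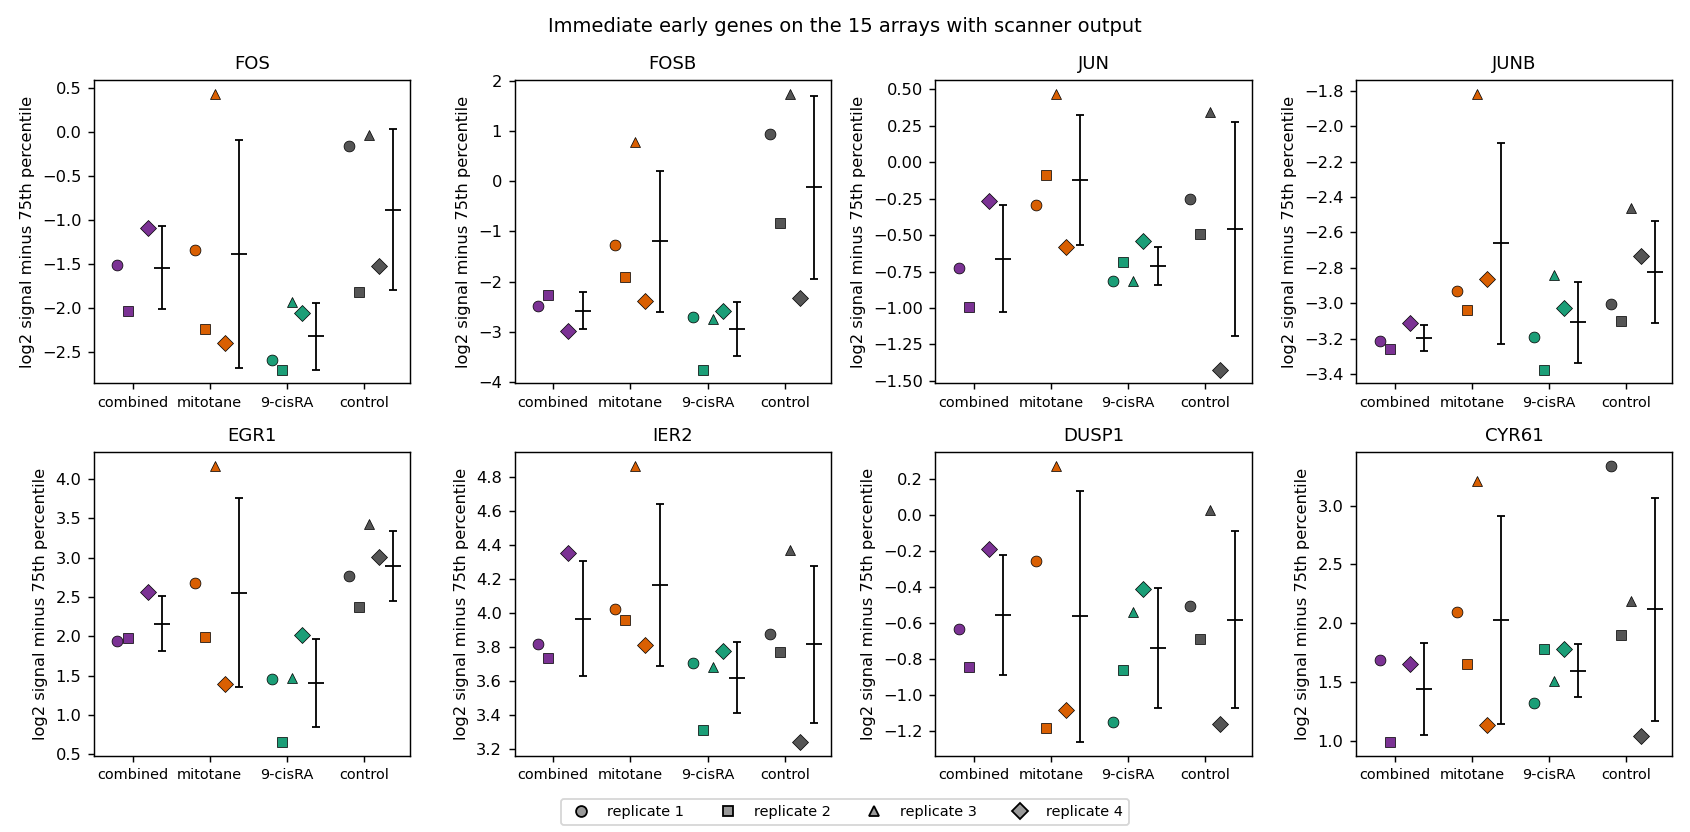
Log2 signal minus the 75th percentile of 8 immediate early genes on the 15 arrays with scanner output, by group from combined to control. Points are arrays, with a symbol for each replicate number, and bars show mean ± SD; for FOS, FOSB and EGR1 all 4 9-cisRA arrays lie below all 4 control arrays, and mitotane replicate 3 is the highest mitotane array for every gene.

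Counted together, 0 of the 9 tested genes passed in limma for mitotane or 9-cisRA against control, for combined against either single agent, for mitotane against 9-cisRA or in the interaction. In these comparisons 0% of all tested transcripts passed as well. At an unadjusted p under 0.05 the count for 9-cisRA against control was 4 of 9 (SRF, FOS, FOSB and EGR1), against 3.51% of all tested transcripts. On the scaled values the same 4 genes were lower in every 9-cisRA array than in every control array. This held for 0.727% of all transcripts. On the unscaled scale control replicate 4 lay within or below the 9-cisRA arrays for FOS, FOSB and EGR1. SRF was chosen by a comparison that uses the same control arrays, so nothing is read from its part in these counts. Without control replicate 4 the groups did not overlap for 6 of 9 genes, against 3.16% of all, and 5 of 9 had an unadjusted p under 0.05, against 4.34%. The median change of the 9 genes was -0.52, against 0.03 over all tested transcripts. All 9 were lower under 9-cisRA, as were 46.1% of all transcripts. The genes other than SRF varied together between arrays, so counts here and in the comparisons below are not of independent genes. With no scaling between arrays 7 of 9 were lower, IER2 and DUSP1 turning to 0.04 and 0.08, and the median of all transcripts moved to 0.27. The changes of FOSB, EGR1, FOS and SRF were then -2.59, -1.25, -1.2 and -0.61, and 1 of 9 genes, FOSB, had an unadjusted p under 0.05, against 0.836% of all. Leaving out 1 array at a time, 3 to 5 of 9 genes had one, while the share of all transcripts ran from 2.47% to 9.44%. JUN and DUSP1 turned to 0.01 and 0.05 without control replicate 3.

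For mitotane against control, 5 of 9 genes were lower and 4 higher, with a median change of -0.09, against 0.09 over all transcripts. None had an unadjusted p under 0.05, against 6.04% of all, and none separated the groups. Leaving out control replicate 4, 1 of 9 had one, FOSB, against 7.68% of all. Leaving out control replicate 1, 2 or 3 it was SRF alone, against 7.37% to 10.3%. Nothing is read from that for SRF, which was chosen by a comparison with these control arrays. Mitotane replicate 3 weighed most: without it 7 of 9 genes were lower, the median change was -0.49, and 3 of 9 had an unadjusted p under 0.05, against 2.84% of all. These were FOS (-1.11 ± 0.44), FOSB (-1.74 ± 0.74) and EGR1 (-0.88 ± 0.36), and 0 passed after adjustment. Without mitotane replicate 4, 3 of 9 were lower and the median was 0.19. For combined against control 7 of 9 were lower, with IER2 at 0.15 and DUSP1 at 0.03. SRF and JUNB did not overlap with control, against 2.52% of all transcripts, and without control replicate 4 this held for 4 of 9, against 8.87%. Both single agents and the combined group were set against the same control arrays, so their changes are not independent.

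**Figure D3:**
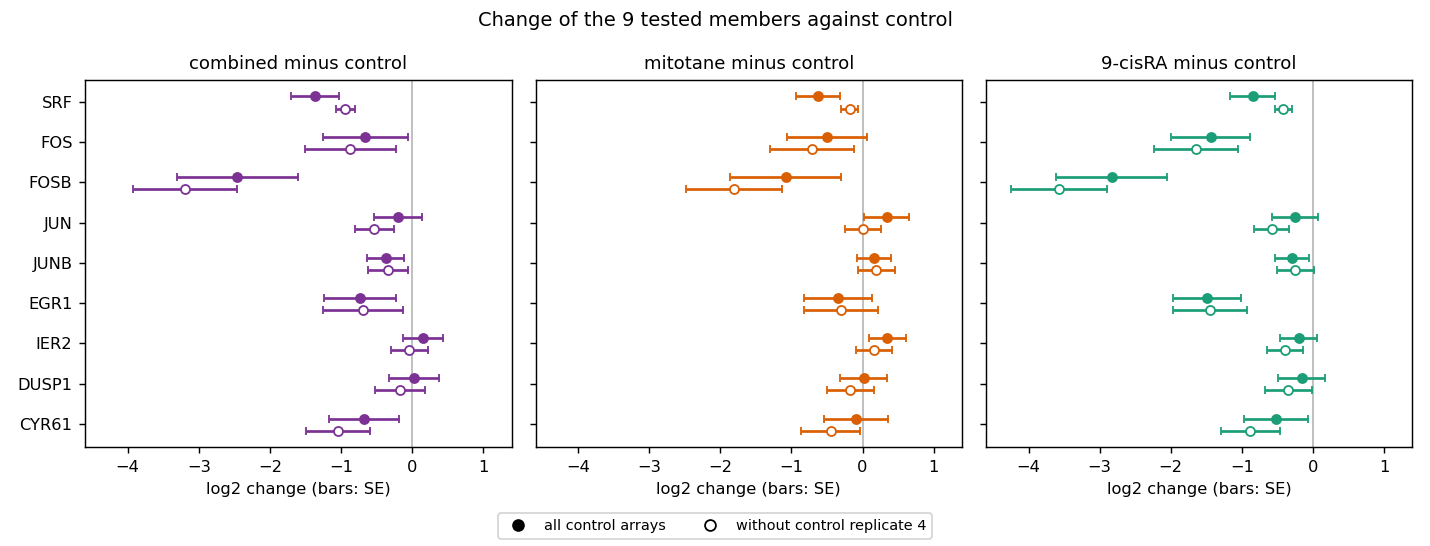
Log2 change against control of the 9 tested genes for combined treatment, mitotane and 9-cisRA, with bars for the SE from limma. Filled points use all control arrays and open points leave out control replicate 4; SRF moves toward 0 without that array in every panel, and FOSB moves away from 0, to -3.57 under 9-cisRA.

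The comparison of mitotane with 9-cisRA uses no control array in its difference. All 9 genes were higher under mitotane, as were 59.2% of all transcripts, and the median change of the genes was 0.55, against 0.05 over all. As these genes, SRF apart, varied together between arrays, they are not independent observations. The FOSB log2 change was 1.75 ± 0.78, a 3.37-fold higher signal under mitotane (unadjusted p = 0.0421, adjusted p = 1, limma). EGR1 was 2.22-fold higher, at 1.15 ± 0.48 (unadjusted p = 0.0292, adjusted p = 0.972, limma). These 2 of 9 genes had an unadjusted p under 0.05, against 4.84% of all. FOSB and IER2 were higher in every mitotane array than in every 9-cisRA array, which held for 3.57% of all. With the slide as a block, FOS, JUNB and IER2 joined them, making 5 of 9, against 4.35% of all transcripts, and again 0 passed after adjustment. On slide 4 the differences were small or turned round, at 0.19 for FOSB, -0.34 for FOS and -0.62 for EGR1. On slide 3, with mitotane replicate 3, they were 3.54, 2.37 and 2.70. Without mitotane replicate 3 the FOSB change was 1.09 and the EGR1 change 0.62, and 0 of 9 genes had an unadjusted p under 0.05, against 2.58% of all. The count was also 0 without mitotane replicate 1 (5.04% of all) or 9-cisRA replicate 2 (3.58%). It was 1, EGR1, without 9-cisRA replicate 1, 3 or 4 or combined replicate 1 (3.11% to 6.45%). It was 4 without control replicate 4, against 11.2% of all, and 5 without mitotane replicate 4, against 3.71%.

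For combined against mitotane, 8 of 9 genes were lower, and SRF and JUNB did not overlap, against 4.5% of all transcripts. Without mitotane replicate 3, 5 of 9 were lower and the median change was -0.19, against -0.53 with it. SRF alone had an unadjusted p under 0.05, against 4.75% of all. Without control replicate 4 SRF was joined by JUN (-0.54 ± 0.25), 2 of 9, against 11.5%. With the slide as a block none had such a p, against 4.51%. SRF was chosen by a comparison that uses these same combined arrays. Nothing is therefore read from its p or its separation against either single agent. For combined against 9-cisRA, 3 of 9 were lower, with a median change of 0.18, and SRF alone lay below every 9-cisRA array, against 4.71% of all. In the authors' value table, which adds combined replicate 3, 5 of 9 were lower and the median change was -0.01. SRF then overlapped the 9-cisRA arrays. None had an unadjusted p under 0.05, against 9.47%, and SRF alone without control replicate 4, against 19%. With the slide as a block FOS (1.12 ± 0.43) and EGR1 (1.01 ± 0.44) were higher in the combined group at that level, 2 of 9 genes, against 8.6% of all. That fit has no combined array on slide 3. In the value table, combined replicate 3 lay below 9-cisRA replicate 3 for both, the other way round. The values were -0.40 and -0.06 for FOS and -0.64 and -0.52 for EGR1.

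The interaction is the combined mean minus those of mitotane and 9-cisRA plus that of control, and it is 0 where both agents add on the log2 scale. It was 0.10 ± 0.46 for SRF, 1.28 ± 0.82 for FOS, 1.45 ± 1.15 for FOSB and 1.1 ± 0.70 for EGR1 (adjusted p = 0.984 for SRF and adjusted p = 0.965 for the others, limma). The term holds the combined and control means that SRF was chosen by, so nothing is read from the value or p of SRF here. None of the 9 had an unadjusted p under 0.05, against 3.71% of all transcripts. With the slide as a block FOS, FOSB and EGR1 had one, 3 of 9, against 3.89%. That fit has no combined array on slide 3. Without control replicate 4 the SRF term turned to -0.33 ± 0.17, and 1 of 9 genes had such a p, FOSB at 2.18 ± 0.97, against 6.94% of all. Without mitotane replicate 3 it was 2 of 9, FOS at 1.88 ± 0.62 and EGR1 at 1.64 ± 0.51, against 3.9%. None of the 9 passed after adjustment in either fit.

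The 8 immediate early genes other than CTGF varied together from array to array. The Pearson r between 2 of them was positive in 28 of 28 pairs over 15 arrays, between 0.508 and 0.898 with a median of 0.699. By a permutation test with 100000 resamples and Benjamini-Hochberg adjustment over the 45 pairs of the 10 genes, 27 of the 28 passed, and 8 passed with Spearman's rho. The closest pair was FOS and EGR1 (r = 0.898, permutation p = 1e-05, the smallest that these resamples can give, adjusted p = 0.00045, and rho = 0.864, permutation p = 0.00012, adjusted p = 0.0027). Without the 2 arrays farthest from the median of FOS, its r was 0.786. JUNB and CYR61 had the lowest r, 0.508, which was -0.05 without the 2 farthest arrays, so that relation rests on them. So do those of JUNB with IER2 (0.678 to -0.03) and with DUSP1 (0.604 to -0.03), which had passed. All other pairs of these 8 genes kept a positive r. FOS with JUN fell from 0.667 to 0.269, and FOSB with JUNB rose from 0.659 to 0.776. The resamples moved arrays across groups, and pairs of other transcripts were not tested, so no share over all pairs stands beside these counts.

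All 8 genes were above their own median on mitotane replicates 1 and 3 and control replicates 1 and 3, which share slides 1 and 3. On the other arrays of those slides, 2 of 8 were above it on combined replicate 1, 0 of 8 on 9-cisRA replicate 1 and 2 of 8 on 9-cisRA replicate 3. Their spread within groups was wide. The within-group SD of FOSB was 1.24, at or above that of 98.4% of tested transcripts, and that of FOS was 0.88 (95.2%). On deviations from the group means, which remove the treatment, r was positive in 28 of 28 pairs, with a median of 0.767, and 15 passed.

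**Figure D4:**
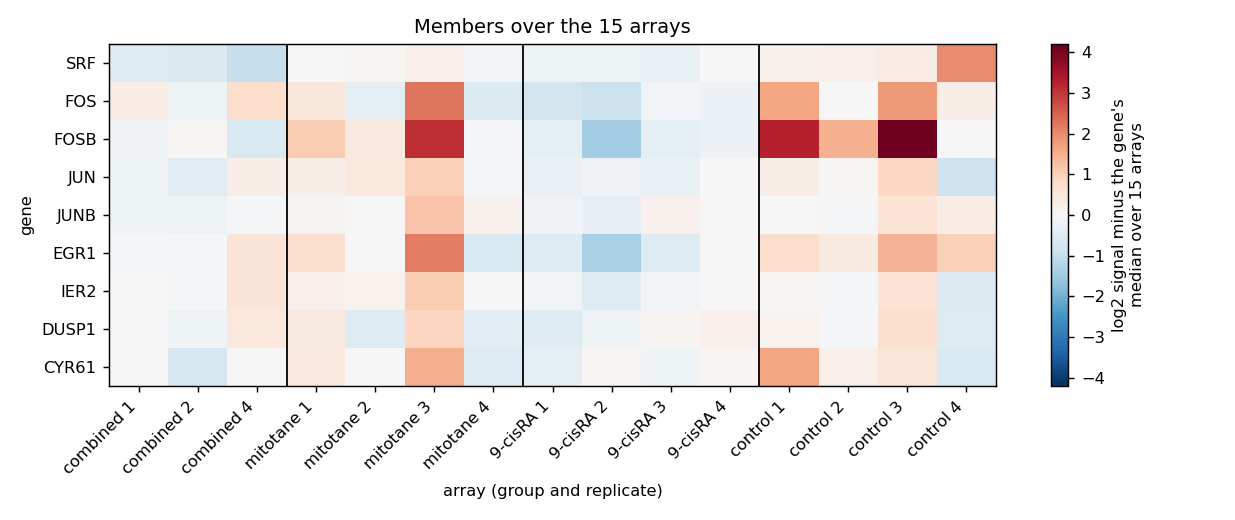
Log2 signal of the 9 tested genes on each of 15 arrays, as the difference from the gene's median over the arrays (colour, from -4.2 in blue to 4.2 in red), with black lines between the groups from combined to control. Mitotane 3, control 1 and control 3 are red for most genes, all 9-cisRA arrays are pale or blue for FOS, FOSB and EGR1, and SRF is red on control 4.

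For SRF the 2 measures of correlation with these 8 genes differed over the 15 arrays. Its Pearson r lay between -0.274 and 0.404, and 0 of 8 passed. By Spearman's rho, which ranks the arrays, 3 of 8 passed: FOSB (rho = 0.714, adjusted permutation p = 0.0295), JUNB and EGR1 (rho = 0.646 and adjusted permutation p = 0.0454 each). Without control replicate 4 all 8 values of r were positive, between 0.179 and 0.696, 2 passed with r (FOSB and CYR61), and 3 with rho (FOSB, JUN and CYR61). Pearson's r therefore depended on that array. With rho the number of pairs that passed stayed the same, but of the genes only FOSB passed both with and without it. On deviations from the group means, r was positive for 2 of 8 genes, between -0.624 and 0.185, and 0 passed with r or rho. Those deviations without control replicate 4 gave 8 of 8 positive, between 0.175 and 0.541, with 1 passing by r and 0 by rho. The values over arrays hold the combined and control levels SRF was chosen by, so nothing is read from which of its pairs passed. Over 20215 other tested transcripts, those most like SRF were NM_022823 (r = 0.94) and NM_002094 (r = 0.938), and the most opposed were NM_006845 (r = -0.953) and NM_144680 (r = -0.951). Over the 14 arrays without control replicate 4 they were NM_003943 (0.884), NM_017493 (0.877), NM_033031 (-0.922) and NM_021944 (-0.906). The files do not name these identifiers.

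For FOS the most alike transcript over 15 arrays was EGR1, followed by NM_002135 (r = 0.897), and FOSB ranked 8 of 20215 (r = 0.849). The most opposed were NM_000828 (r = -0.822) and NM_001017395 (r = -0.787). Without control replicate 4 the first places went to NM_006763 (0.944) and NM_181726 (0.925), and the last to NM_000828 (-0.85) and NM_000266 (-0.827). All r between transcripts describe the same few arrays, and array-wide shifts enter each of them.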

How the data were processed

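The scanner output was deposited by the authors as an intensity for each spot, from Agilent Feature Extraction (11.0.1 in the submitters' processing notes, while the file headers give 11.0.1.1). Its processed signal was background-subtracted, per the file headers, and carries no scaling between arrays. The authors also deposited a table of log2 values for the series; these are close to the same signals scaled to a 75th percentile and centred per probe, and how they were made is not given in the sources here.

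From these, the processed signal was put on the log2 scale and the 75th percentile of the array's 43118 non-control spots subtracted, with copies of a probe averaged and outlier spots left out. The probe with the highest mean stood for each identifier. Transcripts that were well above background on all arrays of 1 group or more were tested (20216 of 29094). All 4 groups shared a fit by lmFit and eBayes of limma 3.58.1 under R 4.3.3, with two-sided p-values adjusted by Benjamini-Hochberg over all transcripts and a threshold of 0.05. The number of arrays limits the precision. The fit was tested on simulated data. Correlations used numpy 2.4.6, and plots matplotlib 3.10.9.

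Alternatives covered the background correction (normexp, offset 50, on the median signal in place of the planned mean signal), normalisation, the filter on dim probes, array weights, the value table, the slide as a block and leaving out each array. Scaling switched off and leaving out control replicate 4 with combined replicate 4 were chosen after seeing the data. Replicate numbers mark the slide named in the labels, which pairs the arrays; deviations of arrays on a slide correlated with a median r of 0.01 (n = 21 pairs, -0.267 to 0.368), against -0.02 for different slides (n = 63).

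The 10 genes and the lists were chosen with earlier results of these data known. Their names come with the identifiers that define the set. All 10 are named, and for SRF and FOS the 2 transcripts with the highest and the 2 with the lowest r. The 42 genes of the other lists and the 18 marker genes matched 0 symbols in the files or the mouse reference table (GRCm38.p6) and were not used. The pairs of genes and comparisons given with values against a single agent were picked after their values were seen.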

Additional observations from a re-analysis of the deposited data

Results flagged for a closer look

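Of 40 sets of 4 arrays looked at for these genes, 4 had an array far from the other 3 by Dixon's test, where chance gives about 1 in 20, or 2.0. SRF was at -1.956 on control replicate 4, with the nearest control array at -3.624. FOSB was at -3.758 on 9-cisRA replicate 2, with the nearest at -2.75. JUNB was at -1.814 on mitotane replicate 3, with the nearest at -2.861. IER2 had a value of 0.545 on combined replicate 4 in the authors' value table, with the nearest combined array at 0.005.

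Relative to the mean of control replicates 1 to 3, control replicate 4 was higher by 1.74 for SRF and lower by a log2 difference of -2.95 for FOSB, -1.44 for CYR61 and -1.29 for JUN. On that array 0.00989% of tested transcripts had a difference as low as that of FOSB, and 86% had one at or below that of SRF. Groups of 3 arrays were not looked at, so the combined group was covered in the value table alone.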

How the results depend on the processing

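Over 52 results and 1421 alternative values, 1382 kept their direction and side of the threshold, 29 turned direction, 8 moved and 2 passed newly. The SRF change for combined against control, -1.37, was -0.48 with normexp and quantile normalisation, -0.81 with array weights, -0.83 in the value table without control replicate 4 and -0.81 without control replicate 4 and combined replicate 4. With array weights 1 gene, SRF, passed against each single agent, as did 103 of all transcripts against mitotane and 2003 against 9-cisRA, where 0 passed without weights. On deviations from group means 15 pairs of genes passed, against 29 of 45. For mitotane against control, array weights turned FOS to 0.10 and EGR1 to 0.05. No scaling turned EGR1 to 0.05 and CYR61 to 0.30. The value table without control replicate 4 turned JUN to -0.01 and DUSP1 to -0.20, and leaving out both doubted arrays turned DUSP1 to -0.17. For 9-cisRA against control, no scaling turned IER2 to 0.04 and DUSP1 to 0.08. The SRF interaction was -0.29 with array weights, -0.21 in the value table without control replicate 4, -0.20 with no scaling and -0.20 without both doubted arrays. For combined against control, JUN was -0.72 without both doubted arrays. The cause was not tested.

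With the slide as a block, which uses the pairing of arrays by slide, the FOS change for combined against mitotane turned to 0.18, and the block changed no call after adjustment. Leaving out 1 array at a time, the change ran from -0.12 to 0.29 for JUNB, -0.88 to 0.05 for EGR1, -0.26 to 0.23 for DUSP1 and -0.49 to 0.32 for CYR61 for mitotane against control. It ran from -0.58 to 0.01 for JUN and -0.35 to 0.05 for DUSP1 for 9-cisRA against control, -0.50 to 0.45 for FOS and -0.78 to 0.14 for EGR1 for combined against mitotane, and -0.33 to 0.27 for the SRF interaction. For 9-cisRA against control it ran from -3.57 to -2.21 for FOSB and -1.70 to -1.24 for EGR1. SRF and CTGF were dim; CTGF was not tested.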
